A study of Mus musculus with 18 samples.

Results

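The genes of MHC class I antigen presentation were followed in RNA from whole B16F10 tumors, a transplanted mouse melanoma. The set holds 10 genes chosen by name: H2-K1, H2-D1, B2m, Tap1, Tap2, Tapbp, Psmb8, Psmb9, Psmb10 and Nlrc5. All 10 were found among the 50600 genes of the count table, and all 10 passed the filter on low counts, as did 17110 genes in all. The study asked how B16F10 tumors in C57BL/6 mice respond to CL656, a cyclic dinucleotide agonist of STING that its protocol calls CDN2, given free or loaded into extracellular vesicles (EVs). Each of 9 groups had 2 tumors, 18 in all, and each tumor was taken 24 h after the last intratumoral injection. A single injection of PBS, unloaded EVs, CDN2 (20 µg), CDN2 (100 µg) or exoCDN2 (0.1 µg), which is CDN2 loaded into EVs, defined the 1-dose groups. The groups given 2 doses, 3 days apart, received PBS, CDN2 (20 µg), exoCDN2 (0.1 µg) or CDN2 in an amount that the labels do not state. The EVs came from human HEK293 cells, and those of the main experiments of the study overexpressed the EV surface protein PTGFRN. Animal age and sex are not given in the labels, and no untreated tumor was sequenced, so every group had been injected. Unloaded EVs were given as 1 dose only in these samples.

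MHC class I molecules show peptides from inside the cell to CD8 T cells. Proteasomes cut cytosolic proteins into peptides, the TAP transporter moves the peptides into the endoplasmic reticulum, and the loading complex places them on a heavy chain paired with beta-2-microglobulin. Interferons raise the whole pathway, partly by exchanging the catalytic subunits of the proteasome for those of the immunoproteasome and partly through Nlrc5, a transactivator of class I promoters. B16 melanoma cells are known for a low basal level of class I that interferon raises.

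H2-K1 and H2-D1 encode the classical class I heavy chains, and B2m the beta-2-microglobulin they share. Tap1 and Tap2 encode the 2 chains of the peptide transporter, and Tapbp encodes tapasin, which bridges the transporter and the empty heavy chain. Psmb8, Psmb9 and Psmb10 encode the catalytic subunits of the immunoproteasome. In GENCODE M21 on GRCm38, 7 of the 10 genes lie in the MHC on chromosome 17: Tapbp (chr17:33915899-33929292), H2-K1 (chr17:33996017-34000347), Psmb9 (chr17:34181987-34187764), Tap1 (chr17:34187553-34197225), Psmb8 (chr17:34197721-34201454), Tap2 (chr17:34203527-34216321) and H2-D1 (chr17:35262730-35267499). B2m lies at chr2:122147686-122153083, Nlrc5 at chr8:94434356-94527272 and Psmb10 at chr8:105935735-105938444. Tap1 and Psmb9 are transcribed away from each other. Their RefSeq starts are 225 bases apart, and their GENCODE gene models overlap by 212 bases at the 5′ ends.

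Class I heavy chain and B2m promoters are known to carry a composite element, the S-X-Y module, that Nlrc5 acts through together with RFX, CREB or ATF, and NF-Y proteins. Promoter windows of 250 bases before to 50 bases after each start were read from RefSeq on GRCm38.p6 for 8 of the 10 genes, all but Tap2 and Nlrc5. The X2 letters TGACG followed by 20 bases and the Y letters ATTGG were found in the windows of the same 3 genes whose products form the class I molecule, and both strands were searched. This spacing was chosen after the sequences had been read. It was present in 31 of 32851 promoter windows of the annotation, 0.0944% of them. The stretches are shown because they place the element in each gene, 5′ to 3′ in the direction of transcription, with the X2 and Y letters in capitals. Their first bases lie 101 bases before the start of H2-D1, 78 before that of B2m, and 41 or 55 before the 2 starts of H2-K1.
H2-K1 (chr17:34000359-34000388, minus strand): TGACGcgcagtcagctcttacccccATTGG
H2-D1 (chr17:35262993-35263022, plus strand): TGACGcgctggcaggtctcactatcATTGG
B2m (chr2:122147609-122147638, plus strand): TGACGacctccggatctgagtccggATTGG

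Sites for NF-kB and for interferon-activated factors were searched in the same windows on both strands. The kB letters GGGNNTTCC occurred in H2-K1 and H2-D1, and in 5.82% of all windows. The core of the interferon-stimulated response element, taken as GAAA, any 2 bases and GAAA, occurred in B2m and in 3.44% of all windows. The gamma-activated site, TTCNNNGAA, occurred in Psmb8 and in 8.3% of all windows. These 4 stretches are shown with the letters searched in capitals, because interferon and STING signalling act through such sites. None of the 4 patterns was found in the windows of Tap1, Tapbp, Psmb9 or Psmb10, which says only that these letters are not in these windows.
H2-K1 (chr17:34000440-34000468, minus strand): gcccagggctGGGgaTTCCccatctccac
H2-D1 (chr17:35262913-35262941, plus strand): gcccagggctGGGgaTTCCccatctcctc
B2m (chr2:122147538-122147567, plus strand): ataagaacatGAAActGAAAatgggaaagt
Psmb8 (chr17:34198088-34198116, plus strand): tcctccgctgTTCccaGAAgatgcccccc

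Levels are given as CPM, which are counts scaled to a common library size with TMM factors, and changes as log2 fold changes ± standard error of edgeR's quasi-likelihood model over all 18 tumors. Calls needed an adjusted p below 0.05 together with a more than 2-fold ratio. Total expected counts ranged from 21608895 to 65983630 per tumor, the lowest being replicate 1 of CDN2 (20 µg) after 2 doses. The 2 tumors of that group had the lowest Pearson's r across genes of all groups (0.950), and 27.4% of the tested genes differed more than 2-fold between them. For the 10 class I genes, the 2 tumors given unloaded EVs stood furthest apart, with a median absolute log2 difference of 1.15, against 0.135 for the 2 PBS tumors after 1 dose. The melanoma markers Dct, Tyr, Tyrp1, Pmel, Mlana and 5 others were detected in all 18 tumors.

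All 10 genes were expressed in every group, and the 2-dose PBS group had the lowest mean for all 10. The distance from the lowest to the highest group mean ran from 12.1-fold for B2m and 12.9-fold for H2-D1, with Psmb10 just below them, to 59.9-fold for Psmb8 and 67.1-fold for Psmb9. The highest group was CDN2 (20 µg) after 2 doses for H2-K1, H2-D1, B2m, Psmb8, Psmb9 and Psmb10. It was exoCDN2 after 2 doses for Tap2, Tapbp and Nlrc5, and CDN2 (20 µg) after 1 dose for Tap1. Per kilobase of exon, B2m had the highest CPM of the set in every group and Nlrc5 the lowest in all but exoCDN2 after 1 dose, where Psmb9 was just under Nlrc5. Because RNA came from whole tumors, fewer cells of a type and less RNA per cell cannot be told apart in any of these values. H2-K1 and H2-D1 resemble each other and the H2-Q and H2-T genes, so the share of reads given to each is uncertain.

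**Figure D1:**
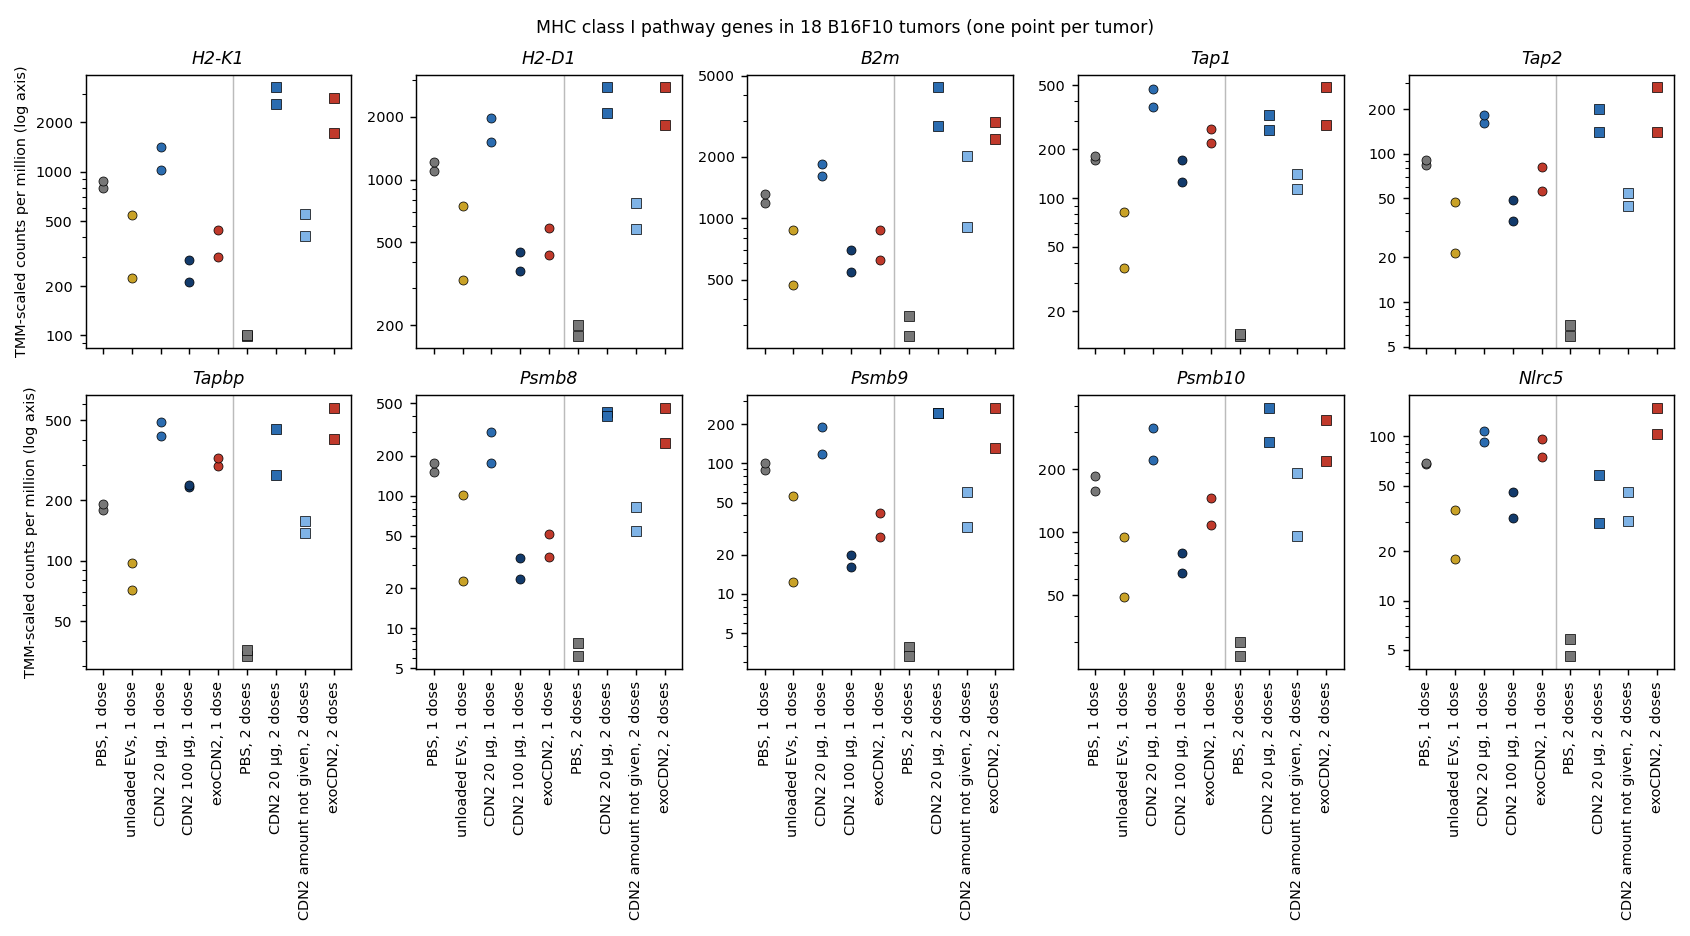
TMM-scaled CPM of the 10 genes, 1 point per tumor on log axes, with 1-dose groups left and 2-dose groups right of the grey line. In every panel the 2 PBS tumors of the 2-dose series lie below all other tumors, and the PBS tumors of the 1-dose series lie several-fold higher.

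The 2 PBS groups are the reference of most comparisons, so comparisons with the same PBS group share its 2 tumors. They differed from each other in this pathway. H2-K1 was 797 and 872 CPM in the PBS tumors after 1 dose and 99.7 and 101 CPM after 2 doses. B2m was 1193 and 1316 CPM after 1 dose and 331 and 265 CPM after 2 doses. Psmb9 was 89.7 and 101 CPM after 1 dose and 3.92 and 3.33 CPM after 2 doses. The 2-dose tumors lay below both 1-dose tumors for all 10 genes, as they did for 22.8% of all tested genes, and all 10 were called lower after the second injection of PBS, when 1.22% of all tested genes were called lower and 0.0468% higher. The fall was smallest for B2m (log2 fold change -2.07 ± 0.37, adjusted p = 0.00974) and Tapbp (-2.41 ± 0.25, adjusted p = 0.000139). It was greatest for Psmb9 (-4.71 ± 0.62, adjusted p = 0.000841) and Psmb8 (-4.57 ± 0.59, adjusted p = 0.000779). The median of the 10 genes was -3.34, beside a median near 0 over all genes.

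Markers of other cells moved in the same contrast, and their part in the result was not tested. The 6 leukocyte markers summed to 425 and 465 CPM in the PBS tumors after 1 dose and to 319 and 246 CPM after 2 doses, with 0 of 6 called. The 8 T cell markers summed to 8.86 and 11.3 CPM after 1 dose and to 2.49 and 1.18 CPM after 2 doses, with 1 of 8 called lower. The 5 keratinocyte markers summed to 115 and 62.7 CPM after 1 dose and were under 1 CPM after 2 doses. The titles of the tumors follow 3 naming styles, which separate the 1-dose PBS, EV and exoCDN2 tumors from the 2-dose PBS, exoCDN2 and unlabelled-amount CDN2 tumors, and both from the tumors given 20 or 100 µg of CDN2. The labels do not say whether the styles mark batches, so a difference between the PBS groups that comes from the number of doses and one that comes from the series of tumors cannot be told apart. The same limit holds for CDN2 (20 or 100 µg) against either PBS group and against exoCDN2, whose titles differ in style.

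Unloaded EVs were compared with PBS after 1 dose to ask what the vesicles do without the agonist. All 10 genes were lower in both EV tumors than in both PBS tumors, which held for 23.5% of all tested genes. Yet 0 of the 10 was called, as was 0% of all genes in either direction. Tap1 was 37.3 and 82.6 CPM with unloaded EVs against 171 and 182 CPM with PBS. Tapbp, the other gene with the smallest adjusted p of the set, was 71.7 and 97.4 CPM against 178 and 191 CPM. Their log2 fold changes were -1.56 ± 0.33 and -1.13 ± 0.24, both with an adjusted p of 0.396. The spread within the EV group was wide: Psmb8 was 22.9 CPM in replicate 1 and 102 CPM in replicate 2. Replicate 1 was the lower EV tumor for every one of the 10 genes. By edgeR's test, 515 of the 17110 tested genes had an unadjusted p under 0.05. DESeq2 called 2 of the 10 lower, Tap1 and Tapbp, when it called 0.164% of all genes lower. In simulated counts with no gene changed between these groups, DESeq2 called 11 genes and edgeR 0. Those counts were drawn with edgeR's own estimates of the spread, so they cannot tell whether the DESeq2 calls in the real tumors are false. Without the filter on low counts, edgeR called 9 of the 10 lower (all but B2m), beside 0.369% of all genes.

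One dose of CDN2 (20 µg) gave values above PBS throughout the pathway, by amounts that passed the test for 1 gene. Tapbp rose from 178 and 191 CPM to 416 and 490 CPM (log2 fold change 1.30 ± 0.24, adjusted p = 0.00666), when 2.32% of all genes were called higher and 0.935% lower. Tap1 was 367 and 475 CPM against 171 and 182 CPM in PBS, which missed the threshold (1.25 ± 0.33, adjusted p = 0.0501). The other 8 genes had log2 fold changes between 0.46 for B2m and 0.97 for Tap2, with adjusted p between 0.216 and 0.729. Both CDN2 tumors lay above both PBS tumors for 9 of the 10 genes, beside 28.5% of all genes, the exception being Psmb8. The Tapbp call was lost without replicate 2 of CDN2 or without either PBS tumor.

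At 100 µg, a single dose of CDN2 gave a different picture for the same genes. H2-K1 fell from 797 and 872 CPM with PBS to 212 and 288 CPM (log2 fold change -1.74 ± 0.37, adjusted p = 0.0202). H2-D1 (-1.51 ± 0.33, adjusted p = 0.0248), Psmb8 (-2.53 ± 0.54, adjusted p = 0.0207) and Psmb9 (-2.40 ± 0.55, adjusted p = 0.0308) also fell. These 4 of 10 genes compare with 0.614% of all genes called lower and 1.88% called higher. Tapbp stood apart in direction, at 233 and 239 CPM against 178 and 191 CPM, a log2 fold change of 0.35 with a 95% interval from -0.15 to 0.86. Leaving out any 1 of the 4 tumors lost all 4 calls. In the same comparison 4 of the 8 T cell markers were called lower, with sums of 1.54 and 1.88 CPM against 8.86 and 11.3 CPM in PBS, and their part in the result was not tested.

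The amounts of free CDN2 were also compared directly, to ask whether 20 and 100 µg act alike on this pathway. All 10 genes were lower in both tumors given 100 µg than in both given 20 µg, beside 28.7% of all genes. Lower calls were made for 6 genes: H2-K1 (-2.29 ± 0.38, adjusted p = 0.0242), H2-D1 (-2.10 ± 0.34, adjusted p = 0.0242), Psmb8 (-3.07 ± 0.55, adjusted p = 0.0363), Psmb9 (-3.10 ± 0.57, adjusted p = 0.0393), Psmb10 (-1.91 ± 0.37, adjusted p = 0.045) and Tap2 (-2.03 ± 0.38, adjusted p = 0.0395). The same comparison called 0.228% of all genes lower and 0.263% higher. B2m, Tap1, Tapbp and Nlrc5 had log2 fold changes from -1.50 to -0.94 and adjusted p from 0.0586 to 0.111. Without any 1 of the 4 tumors the count was 0. The 8 T cell markers (1 called lower) summed to 1.54 and 1.88 CPM at 100 µg and to 6.29 and 13.7 CPM at 20 µg, and the leukocyte markers (0 of 6 called) to 383 and 390 CPM and to 474 and 616 CPM. The 5 endothelial markers, 3 of them called higher, summed to 90.5 and 117 CPM at 100 µg and to 40.1 and 39.6 CPM at 20 µg, and the 7 fibroblast and pericyte markers (0 called) to 765 and 640 CPM and to 265 and 418 CPM. Their part in the result was not tested.

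After 1 dose of exoCDN2 the 10 genes did not all lie on the same side of PBS. Tap1 (221 and 268 CPM), Tapbp (297 and 324 CPM) and Nlrc5 (74.7 and 96.1 CPM) lay above both PBS tumors, where Nlrc5 was 68.0 and 69.1 CPM. Lying above held for 31.6% of all genes, close to these 3 of 10, and lying below for 36.2%. The other 7 genes lay below both PBS tumors, among them H2-K1 at 302 and 439 CPM and Psmb8 at 34.3 and 51.5 CPM against 151 and 177 CPM. None of the 10 differences from PBS was called, and the comparison called 2.29% of all genes higher and 0.514% lower. The smallest adjusted p belonged to Psmb8 (log2 fold change -1.93 ± 0.53, adjusted p = 0.0666) and H2-D1 (-1.18 ± 0.33, adjusted p = 0.076). For Tapbp the log2 fold change was 0.75 ± 0.24 with an adjusted p of 0.123.

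Against unloaded EVs, which control for the vesicle, the same 3 genes were called. Tapbp rose 3.67-fold (log2 fold change 1.88 ± 0.24, adjusted p = 0.000385), Tap1 rose 4.08-fold (2.03 ± 0.34, adjusted p = 0.00288) and Nlrc5 rose 3.19-fold (1.67 ± 0.36, adjusted p = 0.0182), when 2.51% of all genes were called higher and 0.403% lower. The heavy chains and B2m did not separate from the EV tumors. H2-K1 gave a log2 fold change of -0.06 with a 95% interval from -0.83 to 0.71, and B2m 0.15 with an interval from -0.62 to 0.92. Psmb9 gave 0.02, with an interval from -1.11 to 1.14.

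exoCDN2 (0.1 µg) and CDN2 (20 µg) differ in amount and in title style as well as in carrier. After 1 dose, H2-D1 was lower with exoCDN2, at 434 and 586 CPM against 1510 and 1968 CPM (log2 fold change -1.77 ± 0.34, adjusted p = 0.0497). It was the single gene called of the 10, beside 0.123% of all genes called lower and 0.117% higher. H2-K1 (-1.72 ± 0.37, adjusted p = 0.0682) and Psmb8 (-2.48 ± 0.54, adjusted p = 0.0691) were close to the threshold, while Nlrc5 was near 0 (-0.23, 95% interval from -0.98 to 0.53). The H2-D1 call was lost without any 1 of the 4 tumors.

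After 2 doses every gene of the set was higher than in PBS of the same number of doses. With CDN2 (20 µg), all 10 genes were called, when 19.9% of all genes were called higher and 10.5% lower. H2-K1 rose from 99.7 and 101 CPM to 3294 and 2609 CPM, a 29.4-fold difference (log2 fold change 4.88 ± 0.42, adjusted p = 3.6e-06). Psmb9 rose from 3.92 and 3.33 CPM to 243 CPM in both tumors (6.07 ± 0.66, adjusted p = 2.11e-05). The smallest rise was that of Nlrc5, from 5.84 and 4.58 CPM to 29.9 and 58.6 CPM (3.09 ± 0.39, adjusted p = 6.06e-05). The median of the 10 was 4.03.

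With 2 doses of exoCDN2 all 10 genes were again called higher, when 8.83% of all genes were called higher and 2.34% lower. H2-K1 was 2816 and 1712 CPM (22.5-fold above PBS, log2 fold change 4.49 ± 0.41, adjusted p = 6.77e-06), and B2m was 2961 and 2445 CPM (9.07-fold, 3.18 ± 0.39, adjusted p = 9.27e-05). Tap2, the second chain of the transporter, was 282 and 141 CPM against 5.94 and 6.96 CPM (32.7-fold, 5.03 ± 0.43, adjusted p = 3.81e-06). Nlrc5 was 150 and 103 CPM (24.3-fold, 4.60 ± 0.41, adjusted p = 5.5e-06). The median of the 10 was 4.55. Leaving out any 1 tumor kept the count at 10 for both agents.

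The size of these rises depended on the PBS tumors used. Set against the PBS tumors of the 1-dose series, an alternative chosen after the data had been seen, 2 doses of CDN2 (20 µg) gave 3 calls of 10, H2-K1 (log2 fold change 1.82 ± 0.37), B2m (1.53 ± 0.37) and H2-D1 (1.07 ± 0.33), beside 16.5% of all genes. Nlrc5 was then at -0.63 ± 0.35 (adjusted p = 0.17). Against the same tumors, 2 doses of exoCDN2 gave 2 calls, H2-K1 (1.44 ± 0.37, adjusted p = 0.0307) and Tapbp (1.41 ± 0.24, adjusted p = 0.00374), beside 4.61% of all genes called higher, and the other 8 genes had log2 fold changes between 0.70 and 1.28. With the 4 PBS tumors pooled, the counts were 5 for CDN2 (20 µg), beside 19.1% of all genes called higher, and 3 for exoCDN2, beside 8.08%. The change in the effect between 1 and 2 doses, each relative to its own PBS, was called positive for all 10 genes with both agents, when 10.9% (4.74% negative) of all genes were called for CDN2 and 5.15% (1.54% negative) for exoCDN2.

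**Figure D2:**
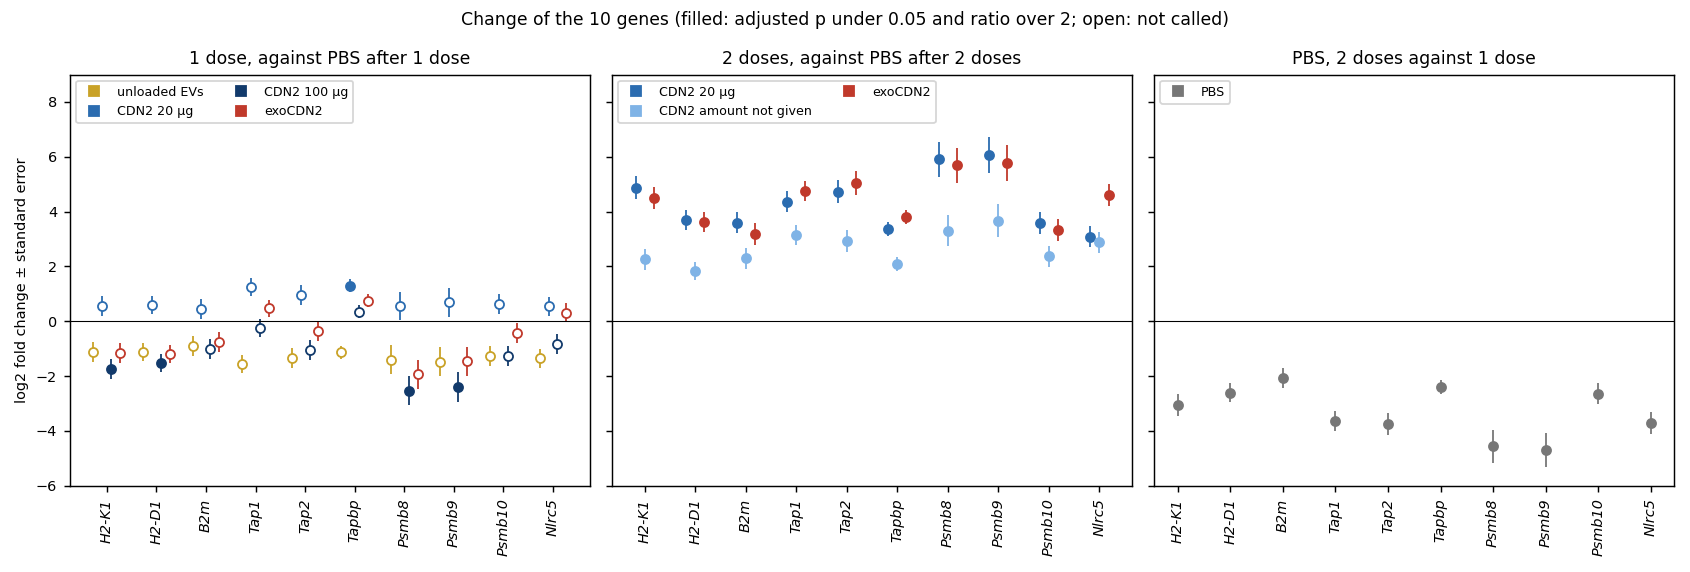
Log2 fold change with its standard error for each of the 10 genes, against PBS of the same number of doses (left, 1 dose; middle, 2 doses) and between the PBS groups (right), with filled points for called genes. The middle panel holds 10 filled points for each agent and the right panel 10 filled points below 0, while the left panel holds 5 filled points.

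exoCDN2 and CDN2 (20 µg) were then compared after 2 doses, again at unequal amounts. For 9 of the 10 genes the tumors of the groups overlapped, whereas both exoCDN2 tumors lay above both CDN2 tumors for 34.4% of all genes and below them for 31%. Among these 9, log2 fold changes lay between -0.42 for B2m and 0.45 for Tapbp. The 95% interval for H2-K1 ran from -1.15 to 0.39 and that for Psmb8 from -1.31 to 0.87, so differences of about 2-fold were within reach of these intervals. Nlrc5 was the exception, at 150 and 103 CPM with exoCDN2 and 29.9 and 58.6 CPM with CDN2 (2.85-fold, log2 fold change 1.51 ± 0.36, adjusted p = 0.00958). This single call among the 10 is close to the shares over all genes, 7.35% called higher and 11.8% lower. The Nlrc5 call was lost without replicate 1 of either group, and in a fit of only these 2 groups. The lowest-depth tumor, replicate 1 of CDN2, had the lower Nlrc5 value of its group.

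In the tumors given 2 doses of CDN2 in an unlabelled amount, all 10 genes were called higher than in 2-dose PBS, beside 0.918% of all genes called higher and 0.0409% lower. H2-K1 was 404 and 555 CPM (log2 fold change 2.25 ± 0.38, adjusted p = 0.00677) and Tap1 was 114 and 140 CPM (3.15 ± 0.35, adjusted p = 0.000337). The count was 3 without replicate 2 of PBS, 4 without replicate 2 of CDN2 and 0 against the 1-dose PBS tumors, which gave 0.00584% of all genes higher and where 9 of the 10 log2 fold changes were negative, from -1.27 for Psmb8 to -0.26 for Psmb10. exoCDN2 after 2 doses was higher than this group for 8 genes, all but B2m and Psmb10, when 4.97% of all genes were called higher and 1.41% lower. Among them were H2-K1 (2.24 ± 0.38, adjusted p = 0.00346) and Tapbp (1.73 ± 0.24, adjusted p = 0.00105). The count was 1 without replicate 1 of exoCDN2 and 3 without replicate 2 of the CDN2 group.

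The second dose was compared with the first within each agent. The titles of the exoCDN2 tumors follow different styles for 1 and 2 doses, and those of the CDN2 (20 µg) tumors the same style. For exoCDN2, 6 of the 10 genes were called higher after 2 doses, beside 5.06% of all genes called higher and 2.27% lower. H2-K1 rose 6.12-fold (log2 fold change 2.61 ± 0.38, adjusted p = 0.0015), Psmb8 8.30-fold (3.05 ± 0.55, adjusted p = 0.00423) and B2m 3.62-fold (1.85 ± 0.37, adjusted p = 0.00686), and H2-D1, Psmb9 and Tap2 also rose. Tap1 (0.66 ± 0.32, adjusted p = 0.229), Tapbp (0.65 ± 0.24, adjusted p = 0.0971), Nlrc5 (0.57 ± 0.35, adjusted p = 0.356) and Psmb10 (1.14 ± 0.37, adjusted p = 0.063) were not called. Tap1, Tapbp and Nlrc5 among them are the genes called against unloaded EVs after the first dose. The count was 2 and 4 without replicates 1 and 2 of the 1-dose group and 3 without replicate 1 of the 2-dose group.

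For CDN2 (20 µg), 7 of the 10 genes were not called between the doses, and the 3 calls are close to the shares over all genes. H2-K1 rose from 1030 and 1416 CPM to 3294 and 2609 CPM (log2 fold change 1.27 ± 0.36, adjusted p = 0.0179), and B2m also rose (1.07 ± 0.36, adjusted p = 0.0371), when 14.2% of all genes were called higher. Nlrc5 fell from 92.0 and 108 CPM to 29.9 and 58.6 CPM (-1.17 ± 0.36, adjusted p = 0.024), when 6.35% of all genes were called lower. These 3 calls became 0 without replicate 1 of either group or in a fit of only these 2 groups, and 1 without replicate 2 of the 1-dose group. Tap2 was 161 and 181 CPM after 1 dose and 140 and 202 CPM after 2 doses, and its log2 fold change was -0.003 with a 95% interval from -0.78 to 0.78.

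The immunoproteasome was set against the proteasome it replaces by dividing each inducible subunit by its constitutive counterpart within the same tumor, per kilobase of exon. Psmb5, Psmb6 and Psmb7 encode these counterparts. Exon length is that of all annotated exons of a gene merged, and the level of a ratio depends on it. As plain counts, Psmb8 over Psmb5 was 4.23 and 2.45 after 2 doses of exoCDN2. Per kilobase, the ratio of Psmb8 to Psmb5 was 0.0205 and 0.0127 in 2-dose PBS and 0.329 and 0.369 in 1-dose PBS. It was 1.12 and 0.651 after 2 doses of exoCDN2 and 0.473 and 0.590 after 2 doses of CDN2 (20 µg), so for this pair exoCDN2 lay above CDN2 in both tumors. After 1 dose, it was 0.329 and 0.457 with CDN2 (20 µg), 0.0804 and 0.123 with exoCDN2 and 0.0559 and 0.0765 with CDN2 (100 µg). With unloaded EVs it was 0.0520 and 0.208.

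Psmb9 over Psmb6 followed the same order at the extremes, from 0.0138 and 0.0111 in 2-dose PBS to 0.795 and 0.422 after 2 doses of exoCDN2, which overlapped the 0.345 and 0.424 after 2 doses of CDN2 (20 µg). Psmb10 over Psmb7 varied less, from 0.252 and 0.273 in 2-dose PBS to 3.14 and 2.11 after 2 doses of exoCDN2, and it also overlapped CDN2 (20 µg), at 1.44 and 2.17. An exact permutation test of such ratios between groups of 2 cannot reach a two-sided p below 0.333, so none is given. None of Psmb5, Psmb6 and Psmb7 was called in any comparison except Psmb6 after 2 doses of CDN2 (20 µg) against PBS (log2 fold change 1.13 ± 0.19, adjusted p = 0.000528). Their median log2 fold change was -0.98 for exoCDN2 against CDN2 (20 µg) after 2 doses, so the denominators also differed between these groups. The 11 structural subunits of the 20S core, Psma1 to Psma7 and Psmb1 to Psmb4, were called in 0 of the 17 comparisons. They were not all flat, since a call needs a more than 2-fold ratio. With 2 doses of CDN2 (20 µg) against PBS all 11 were higher, with a median log2 fold change of 0.68, at most 0.85, and a lowest adjusted p of 0.0023. Their median was 0.09 for exoCDN2 against PBS and -0.42 for exoCDN2 against CDN2 (20 µg) after 2 doses.

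**Figure D3:**
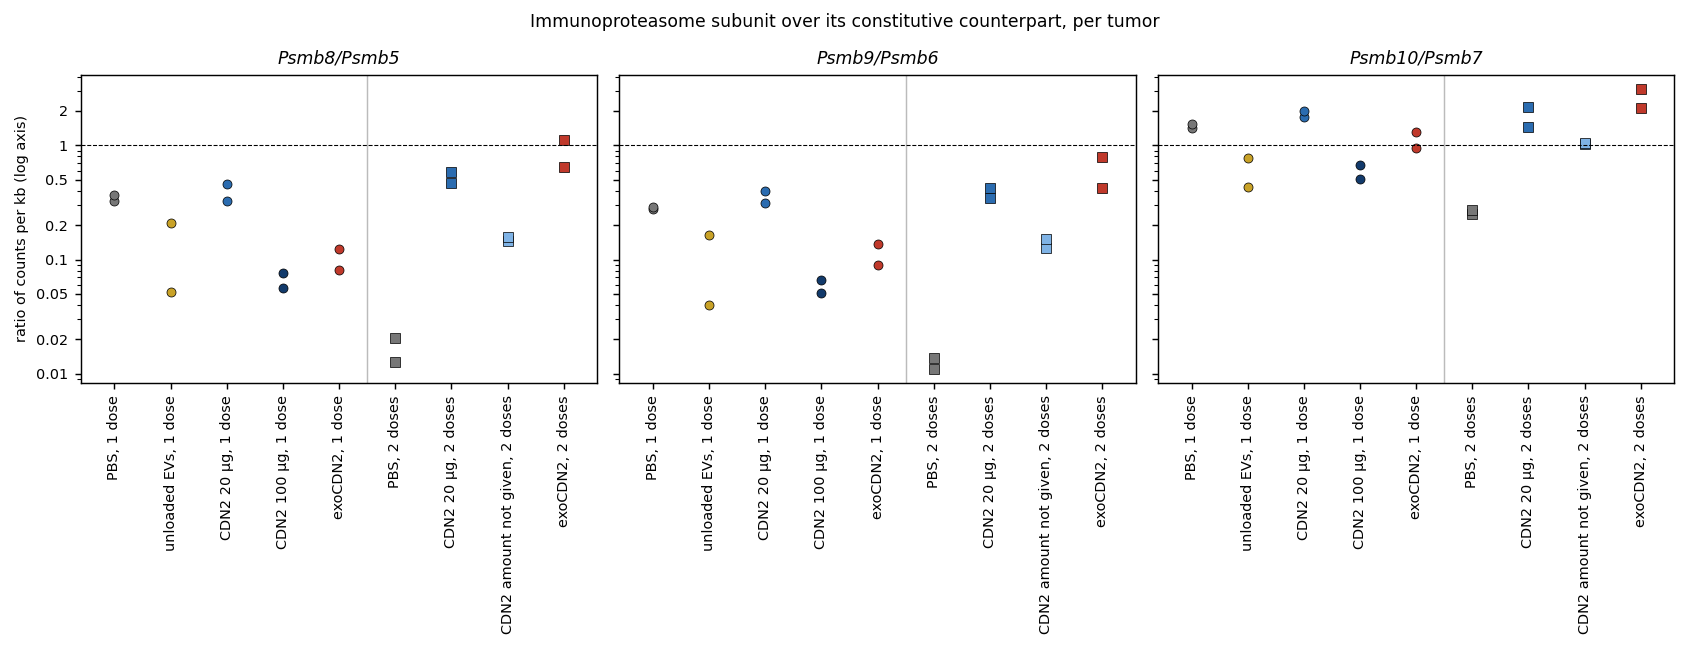
Ratio of each immunoproteasome subunit to its constitutive counterpart per kilobase of exon, 1 point per tumor on a log axis, with a dashed line at 1. Psmb8 over Psmb5 runs from 0.0127 in a 2-dose PBS tumor to 1.12 in a 2-dose exoCDN2 tumor, and Psmb10 over Psmb7 runs from 0.252 in a 2-dose PBS tumor to 3.14 in a 2-dose exoCDN2 tumor.

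Ratios of 2 class I genes within a tumor do not depend on library scaling, and pairs were chosen after their values had been seen. Tap1 and Psmb9 share a bidirectional promoter region, yet their counts did not keep 1 ratio. Tap1 over Psmb9 was 1.91 and 1.81 in 1-dose PBS, 8.14 and 6.39 after 1 dose of exoCDN2, and 7.82 and 8.61 after 1 dose of CDN2 (100 µg). After 2 doses it was 1.82 and 2.16 with exoCDN2, 1.08 and 1.35 with CDN2 (20 µg) and 3.61 and 4.36 with PBS. Their gene models overlap, as do those of B2m and Patl2, Tapbp and Zbtb22, Tap2 and Psmb8 with Gm20496, and Nlrc5 and 9330175E14Rik. The sources used here do not state whether strand was used in counting, so reads in overlaps may be uncertain.

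Nlrc5 over H2-K1 was highest in the 1-dose exoCDN2 tumors, at 0.248 and 0.219, and lowest in the 2-dose CDN2 (20 µg) tumors, at 0.00907 and 0.0224. It was 0.0853 and 0.0792 in 1-dose PBS and 0.0586 and 0.0452 in 2-dose PBS. After 2 doses of exoCDN2 it was 0.0532 and 0.0601, overlapping the PBS tumors of the same number of doses.

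**Figure D4:**
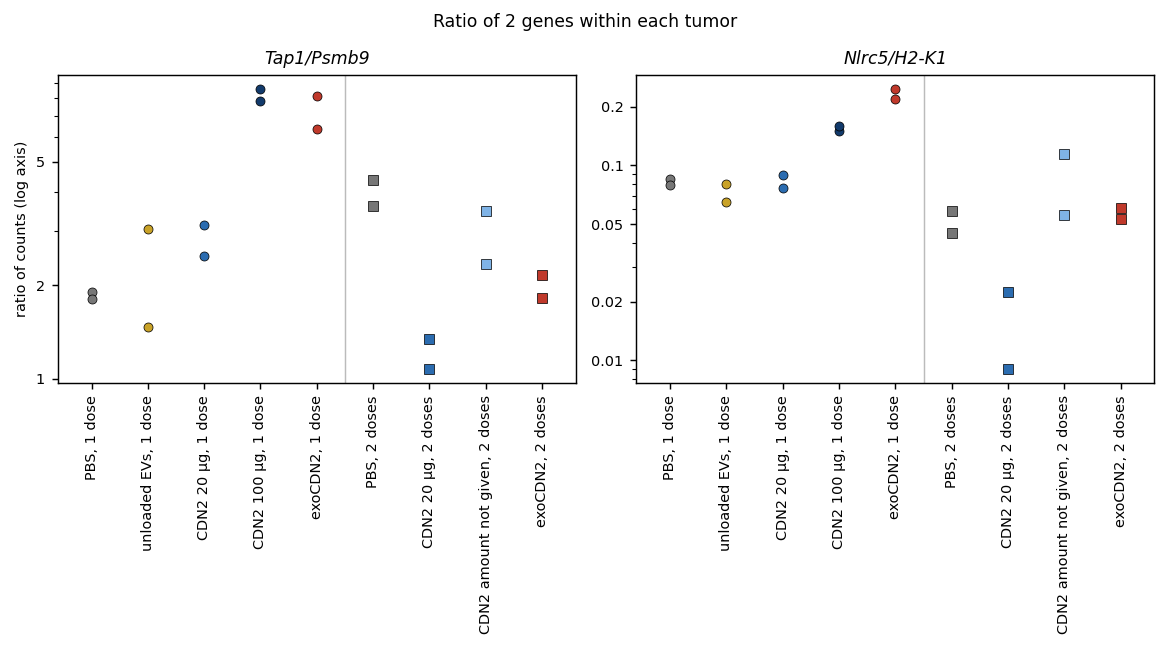
Ratio of counts of Tap1 to Psmb9 (left) and Nlrc5 to H2-K1 (right) within each tumor, on log axes. Tap1 over Psmb9 is above 6 in the 4 tumors given 1 dose of exoCDN2 or 100 µg of CDN2 and under 5 in the other 14, and Nlrc5 over H2-K1 is under 0.03 in both 2-dose CDN2 (20 µg) tumors.

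Across the 18 tumors the 10 genes varied together, which is a description, since the tumors share treatments. Pearson's r of log2 CPM was highest for Psmb8 with Psmb9 (0.995) and H2-K1 with H2-D1 (0.992), and lowest for B2m with Nlrc5 (0.661). Tap2 was closest to the mean of the other 9 (0.991) and Nlrc5 furthest from it (0.837). Over the same tumors, the gene outside the set most like its mean was Tapbpl (0.978), which encodes TAPBPR, a tapasin-like peptide editor. It was followed by Gbp10 (0.975), an interferon-induced guanylate-binding protein gene, and Gm4841 (0.973). Casp12, Apol10b, Apol9b, Apol6, 9330175E14Rik, Zbp1 and H2-Q4 came next, down to 0.961.

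Other heavy chains of the H2-Q, H2-T and H2-M series were taken as a list of 14, of which 13 were tested. After 2 doses of CDN2 (20 µg) 12 of the 13 were called higher than in PBS and none lower, when 19.9% of all genes were called higher. After 2 doses of exoCDN2 10 were called higher and none lower, when 8.83% of all genes were called higher. H2-Q1, H2-Q2 and H2-M2 had at most 2 counts over both PBS tumors, so their fold changes are not given. The median log2 fold change of the 13 was 5.11 with CDN2 and 4.04 with exoCDN2 as fitted, and 4.998 and 3.78 with these 3 genes set against a floor of 3 counts over the PBS group. H2-T23, which encodes the nonclassical molecule Qa-1, was 406 CPM on average after 2 doses of exoCDN2 and 435 CPM after 2 doses of CDN2 against 8.62 CPM in PBS. H2-T22 was 1207 and 946 CPM with CDN2, 816 and 414 CPM with exoCDN2 and 33.1 and 34.2 CPM with PBS.

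Lower levels were called for 5 of these genes with exoCDN2 than with CDN2 (20 µg) after 2 doses. That comparison called 11.8% of all genes lower and 7.35% higher. The 5 genes were H2-Q6 (log2 fold change -1.64 ± 0.45, adjusted p = 0.017), H2-Q7 (-1.79 ± 0.52, adjusted p = 0.0216), H2-T10 (-1.73 ± 0.52, adjusted p = 0.0228), H2-Q10 and the barely detected H2-Q2. Whether they differ from H2-K1 in this respect was not tested, and the authors' counting could split reads among them. After 1 dose, 0 of the 13 was called against PBS with either amount of CDN2, and 1, H2-Q10, was called higher with exoCDN2. The shares of all genes called higher were 2.32% with CDN2 (20 µg), 1.88% with CDN2 (100 µg) and 2.29% with exoCDN2. In 2-dose PBS against 1-dose PBS, 6 of the heavy chains were called lower, when 1.22% of all genes were. Among them was H2-Q4 (-2.61 ± 0.27, adjusted p = 0.000139).

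Peptide loading and trimming partners were taken as a list of 12. After 2 doses of exoCDN2, 3 were called higher than in PBS (8.83% of all genes were) and 0 lower: Tapbpl (log2 fold change 3.89 ± 0.35, adjusted p = 5.95e-06), Erap1 (2.95 ± 0.44, adjusted p = 0.000478), which trims peptides in the endoplasmic reticulum, and Lap3 (1.67 ± 0.26, adjusted p = 0.000591), a leucine aminopeptidase gene. After 2 doses of CDN2 (20 µg) these 3 and Npepps were called higher (19.9% of all genes were), and Canx, which encodes the chaperone calnexin, was called lower (-1.17 ± 0.26, adjusted p = 0.00251). The median of the 12 was 0.10 with exoCDN2 and -0.08 with CDN2.

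Of 9 genes for the PA28 proteasome activator and proteasome assembly, Psme1 and Psme2 were called higher in both comparisons. The shares of all genes called higher were 8.83% with exoCDN2 and 19.9% with CDN2 (20 µg). Psme1, which encodes PA28 alpha, was 443 and 319 CPM after 2 doses of exoCDN2 against 55.8 and 60.8 CPM in PBS (2.71 ± 0.29, adjusted p = 2.58e-05). Psme2, the beta chain, was 297 and 214 CPM against 34.3 and 34.2 CPM (2.90 ± 0.35, adjusted p = 8.54e-05). Psmg4 was called in addition with CDN2 (20 µg). The median of the 9 was 0.0016 with exoCDN2 and 0.47 with CDN2.

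The interferon signalling genes upstream of class I were taken as a list of 22. After 1 dose, 6 were called higher with either amount of CDN2 and 7 with exoCDN2, and none lower. The median of the 22 was 0.29 with CDN2 (20 µg), 0.20 with CDN2 (100 µg) and 0.35 with exoCDN2. Against 2-dose PBS, 9 were called higher with CDN2 (20 µg), with a median of 0.36, and 8 with exoCDN2, with a median of 0.57. The shares of all genes called higher were 19.9% and 8.83% in these 2 comparisons, and 2.32%, 1.88% and 2.29% in the 1-dose comparisons of CDN2 (20 µg), CDN2 (100 µg) and exoCDN2. Irf1, an interferon-induced activator of class I genes, rose from 126 and 145 CPM with PBS to 884 and 1327 CPM with CDN2 (20 µg), 838 and 1000 CPM with exoCDN2 and 724 and 738 CPM with CDN2 (100 µg). Its log2 fold changes were 3.03 ± 0.30 (adjusted p = 4.97e-05), 2.76 ± 0.30 (adjusted p = 9.3e-05) and 2.43 ± 0.29 (adjusted p = 0.000358). All 6 tumors lay above the PBS tumors, including those of the 100 µg group, in which H2-K1, H2-D1, Psmb8 and Psmb9 were lower than in PBS.

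After 2 doses Irf1 was at 440 and 299 CPM with CDN2 (20 µg) and 338 and 200 CPM with exoCDN2, below every tumor given 1 dose of the same agent. From 1 to 2 doses its log2 fold change was -1.58 ± 0.28 (adjusted p = 0.00153) with CDN2 (20 µg). With exoCDN2 it was -1.77 ± 0.29 (adjusted p = 0.00248). Irf1 was also lower in 2-dose PBS, at 19.6 and 18.2 CPM, than in 1-dose PBS. The exoCDN2 titles differ in style between the doses, so dose and series of tumors cannot be told apart there. Against 2-dose PBS, Irf1 was higher with both agents. Irf1 overlapped between the 2 agents after 2 doses. Ifng, the gene of interferon gamma, had 2 and 0 counts in 2-dose PBS, 18 and 70 counts with CDN2 (20 µg) and 262 and 226 counts with exoCDN2. It was called higher against PBS with both agents (adjusted p = 0.00322 and 0.00143), and no fold is given because PBS lay under the floor of 3 counts.

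Markers of several cell types moved with the 2-dose results. The 6 leukocyte markers were all called higher with CDN2 (20 µg) and 5 of 6 with exoCDN2, against 2-dose PBS. These 2 comparisons called 19.9% and 8.83% of all genes higher. The leukocyte markers summed to 1095 and 792 CPM with CDN2, 851 and 627 CPM with exoCDN2 and 367 and 510 CPM with CDN2 of unlabelled amount. The T cell markers summed to 43.9 and 33.3 CPM with exoCDN2 and to 10.99 and 12.6 CPM with CDN2. The NK cell markers, 5 in number, summed to 17.5 and 11.6 CPM with exoCDN2 and to 1.96 and 8.15 CPM with CDN2. Of 8 macrophage and monocyte markers, 6 were called higher than in 2-dose PBS with each agent, with sums of 1012 and 479 CPM with CDN2, 784 and 527 CPM with exoCDN2 and 209 and 173 CPM with PBS. Of 7 fibroblast and pericyte markers, 4 were called higher with CDN2 and 3 with exoCDN2, with sums of 1845 and 869 CPM, 997 and 448 CPM, and 365 and 364 CPM in PBS.

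The 10 melanoma markers summed to 7747 and 13730 CPM with 2 doses of CDN2 (20 µg), 16089 and 17414 CPM with exoCDN2 and between 21278 and 26902 CPM in all other tumors. In the CDN2 tumors the 5 skeletal muscle markers reached 3580 and 1827 CPM and the 6 neutrophil markers 924 and 210 CPM. The muscle markers summed to 160 CPM in both tumors given 2 doses of exoCDN2 and to 153 and 278 CPM in 2-dose PBS. The neutrophil markers summed to 68.8 and 23.2 CPM with 2 doses of exoCDN2 and to 2.31 and 1.60 CPM in 2-dose PBS. The part of these cells in the class I result was not tested.

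**Figure D5:**
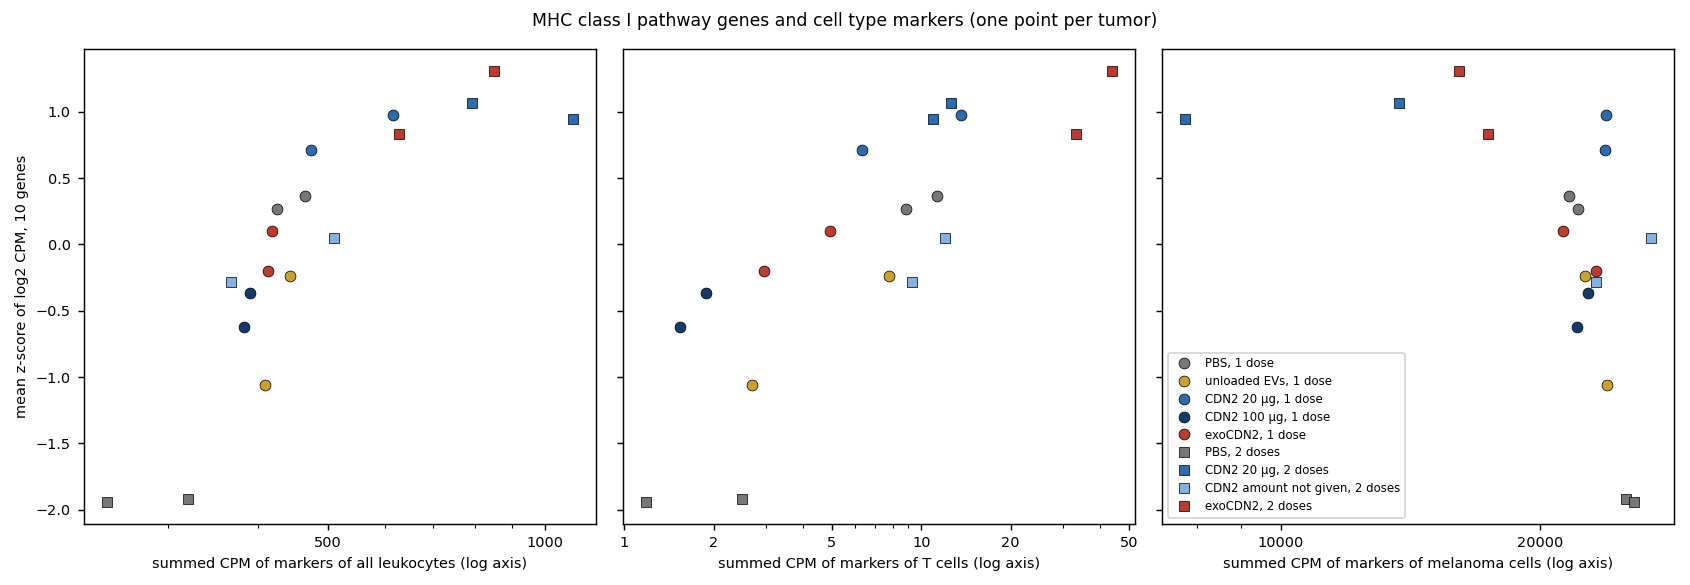
Mean z-score of log2 CPM of the 10 genes against the summed CPM of markers of leukocytes, T cells and melanoma cells, 1 point per tumor with log horizontal axes. The 2-dose PBS tumors have the lowest class I scores, and among the 1-dose tumors the T cell sums run from 1.54 to 13.7 CPM, the leukocyte sums from 383 to 616 CPM and the melanoma sums from 21278 to 23887 CPM.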

How the data were processed

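RNA-seq of 18 tumors was analysed. The authors aligned reads to GRCm38 with OSA in OmicSoft ArraySuite and quantified genes with RSEM on Ensembl R88, and they deposited expected counts per gene without normalization. Between 8.75% and 12.7% of values per tumor were not whole, so counts were rounded. Symbols came from GENCODE M21 (50376 of 50600 identifiers). Genes were kept by filterByExpr (minimum count 10, minimum total 15), scaled by TMM and fitted with edgeR 4.0.16 in R 4.3.3, with 1 mean per group over 9 groups (9 residual degrees of freedom, common biological coefficient of variation 0.228). This quasi-likelihood test was adjusted by Benjamini-Hochberg over 17110 genes. The study used DESeq2 with the same thresholds. DESeq2 1.42.0 was an alternative here, beside RLE scaling, no filter, the replicate number as a block, 16 tumors of 8 groups, pooled PBS, only the compared groups, no limit on the ratio and each tumor left out. Tumors were grouped by label and replicate numbers came from titles. P-values set differences between group means against the spread within groups, which the main fit estimated over all 9 groups together.

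The members and lists were chosen with earlier results of these data known. Named genes are the 10 members, at most 3 genes each way per list with the smallest p in a comparison, Psmb5, Psmb6, Psmb7, Psme1, Psme2, Irf1 and Ifng, and the 10 outside genes most correlated with the members' mean. Other list genes (H2-Q7, H2-T10, H2-Q1 and H2-M2, and H2-T23 and Erap1 for CDN2) were named after their values were seen. One listed gene is not reported here. In simulated counts for 2 doses of exoCDN2 against PBS, edgeR recovered 182 of 200 genes changed 4-fold. It called 9 unchanged genes among 16592 tested. DESeq2 recovered 192 and called 28 unchanged genes. For simulated unloaded EVs against PBS, with no gene changed, edgeR called 0 genes and DESeq2 11. The 95% intervals were computed from the standard errors of the quasi-likelihood model.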

Additional observations from a re-analysis of the deposited data

Results flagged for a closer look

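The effect of CDN2 (20 µg) relative to PBS differed between 2 doses and 1 dose for all 10 genes, by the interaction term of edgeR's model. The differences in log2 fold change were 4.33 for H2-K1, 3.10 for H2-D1, 3.14 for B2m, 3.11 for Tap1, 3.75 for Tap2, 2.07 for Tapbp, 5.36 for Psmb8, 5.37 for Psmb9, 2.94 for Psmb10 and 2.55 for Nlrc5. Adjusted p lay between 0.000692 for H2-K1 and 0.00567 for Nlrc5, when 10.9% of all genes were called higher.

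The effect of exoCDN2 relative to PBS also differed between 2 doses and 1 dose for all 10 genes. The differences were 5.67 for H2-K1, 4.79 for H2-D1, 3.93 for B2m, 4.28 for Tap1, 5.38 for Tap2, 3.06 for Tapbp, 7.62 for Psmb8, 7.24 for Psmb9, 3.78 for Psmb10 and 4.28 for Nlrc5. Adjusted p lay between 0.000154 and 0.000828, when 5.15% of all genes were called higher.

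Both sets of differences contain the fall of the PBS groups, from -4.71 for Psmb9 to -2.07 for B2m. For Nlrc5 and CDN2 (20 µg), the agent itself was lower after 2 doses than after 1 dose (-1.17 ± 0.36), and the positive difference comes with the fall in PBS (-3.72 ± 0.40).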

How the results depend on the processing

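Counts of called genes among the 10 changed by over 1.5 times in these settings, and the cause was not tested. For unloaded EVs against PBS the count was 0, and 2 with DESeq2 and 9 without the filter. For 1 dose of CDN2 (20 µg) against PBS it was 1, and 2 with DESeq2, RLE scaling, no filter, the replicate block or only the compared groups. For CDN2 (100 µg) against PBS it was 4, and 7 without the filter or with only the compared groups, and 0 with 4 PBS tumors pooled. For 1 dose of exoCDN2 against PBS it was 0, and 3 with DESeq2 and 4 without the filter or with only the compared groups. For exoCDN2 against CDN2 (20 µg) after 1 dose it was 1, and 6 with DESeq2, 7 without the filter or with only the compared groups, and 0 with RLE scaling or the block. After 2 doses against PBS it was 10 for each agent. Pooled PBS gave 5 for CDN2 (20 µg), 3 for exoCDN2 and 0 for the unlabelled amount, and 1-dose PBS, chosen after seeing the data, gave 3, 2 and 0. Fitting only the compared groups gave 0 for exoCDN2 against CDN2 (20 µg) after 2 doses (1 otherwise) and 0 for the second against the first dose of CDN2 (3 otherwise).

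Among changes called in the fit of all 18 tumors, directions turned only with other PBS tumors. Against 1-dose PBS, Nlrc5 after 2 doses of CDN2 (20 µg) was -0.63, and for the unlabelled amount H2-K1 was -0.80, H2-D1 -0.78, Tap1 -0.48, Tap2 -0.82, Tapbp -0.32, Psmb8 -1.27, Psmb9 -1.04, Psmb10 -0.26 and Nlrc5 -0.84. With pooled PBS that group gave -0.33 for Psmb8 and -0.0926 for Psmb9. Pooled PBS was not run for the differences between 2 doses and 1 dose relative to PBS, since PBS then cancels out. The 16-tumor fit moved no count by over 1.5 times.

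With each tumor left out in turn, counts ranged from 0 to 0 for unloaded EVs, CDN2 (100 µg) and exoCDN2 against PBS, exoCDN2 against CDN2 (20 µg) and 100 against 20 µg after 1 dose. They ranged from 0 to 1 for CDN2 (20 µg) against PBS after 1 dose and for exoCDN2 against CDN2 (20 µg) after 2 doses, and from 2 to 3 for exoCDN2 against unloaded EVs. After 2 doses they were 10 to 10 for CDN2 (20 µg) and exoCDN2 against PBS, 3 to 10 for the unlabelled amount and 1 to 8 for exoCDN2 against it. They were 0 to 3 for the second dose of CDN2, 2 to 6 for that of exoCDN2, 9 to 10 for PBS and 10 to 10 for both differences relative to PBS.

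The replicate numbers in the titles run across groups. Deviations of same-numbered tumors had a mean correlation of 0.0136 over 36 pairs of groups, from -0.184 to 0.319, with 7 over 0.1. The highest was between the 2-dose CDN2 (20 µg) and 2-dose exoCDN2 groups. A mean over all pairs cannot exclude pairing within some groups, and the block was run as an alternative. Beside the counts above, the block gave 5 for CDN2 (100 µg) against PBS, 7 for the second dose of exoCDN2 and 9 for exoCDN2 against the unlabelled amount, and it moved no other count. Ratios from unrounded expected counts moved by less than the spread between replicates.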
